A study of Homo sapiens with 8 samples.

Results

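The 1904 guides described here target 255 splice junctions of 28 human genes for small nuclear ribonucleoprotein (snRNP) and associated splicing proteins, out of 46829 guides, 6735 junctions and 1250 genes in the screen. A gene was taken when its symbol belonged to the SNRP, SNRNP, LSM, PRPF or CWC families or was EFTUD2, SART1, SART3, USP39, CDC5L, BCAS2, PLRG1, XAB2 or AQR, and when its guides were not typed as non-essential controls. The choice used names and types only, and no fold change. The deposited table typed 23 of the 28 genes as essential under Cas13 and 5 as not essential (BCAS2, LSM11, LSM8, SNRNP25 and SNRNP40). The criterion for that type was not stated. It could rest on the fold changes analysed here, so the type supports no result. SNRPB2 and LSM14A matched by name but were typed as controls, and their 9 guides were left out of the 1904.

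The screen was run in A375, an established human melanoma line, as a clonal line carrying RfxCas13d under a doxycycline-inducible promoter. RfxCas13d is a CRISPR nuclease that cuts RNA, so a guide lowers a transcript and leaves the gene intact. Genomic DNA was taken from untreated cells at Day 0 and from cells under 1 ug/ml doxycycline at Day 7, Day 14 and Day 21, with 2 replicates at each day and 8 libraries in all. All groups carry the same nuclease and guide pool, so Day 0 is the control, and a clonal line cannot show how other A375 clones would behave. Each value is a log2 fold change (LFC) of a guide's abundance against Day 0 of the same replicate, for 6 libraries. A negative LFC means that cells carrying the guide became rarer in the pool. No source used here gives guide sequences, so guides are identified by the junction they target and by their number on it. The value of a gene or junction in a library is the mean LFC over its guides.

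Introns are removed from pre-mRNA by the spliceosome, which is assembled from snRNPs, each a small nuclear RNA bound by proteins. The U1 snRNP binds the start of an intron and the U2 snRNP its branch point, and then U4, U6 and U5 join together as the tri-snRNP. A ring of Sm proteins forms the core of the U1, U2, U4 and U5 particles, while U6 carries a related ring of LSM proteins. The Prp19 complex joins during activation of the spliceosome. The machinery serves nearly all transcripts that contain introns and is broadly required for proliferation of human cells.

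By Day 21, 11 of the 28 genes were called lower (39.3%) and none higher, against 20.8% called lower among all 1223 genes tested and 28.2% among all genes typed essential or not essential under Cas13 (scored genes). A call is an adjusted p under 0.05 in limma, fitted on all genes of the table with the replicates tested against 0. All 11 were among the 23 typed essential (47.8%), where the share over all genes so typed was 44.1%. The share called among the essential-typed genes here was therefore near that background. The genes called lower included SNRPF, LSM7, LSM2, SNRNP200, SNRPC, EFTUD2, PRPF8, USP39, SNRPD1 and PRPF31. With all days in a fit with the replicate number as a block, 21 genes were called lower, these 11 among them, and none higher. The further 10 were CWC22, LSM8, PRPF19, PRPF38B, PRPF6, SNRNP25, SNRNP27, SNRNP40, SNRPA1 and XAB2. The block fit takes out the replicate difference that the days share before testing. It called 556 of all 1223 genes lower, against 254 in the main fit, so the rise to 21 is not particular to these genes. At an unadjusted p under 0.05 in limma, 18 of the 28 genes were lower and 0 higher, where 460 of all 1223 genes passed in either direction. When guides were summarised by their median, 2 genes were called lower, and when each library was centred on the median of all guides, 5. Centring on the non-targeting guides left 8, with the calls of SNRPF (limma adjusted p = 0.0675), SNRPC (limma adjusted p = 0.0630) and PRPF31 lost. The median over the 28 gene means was −0.74 (SD 0.18, n = 2 replicates), beside −0.28 over all genes, −0.43 over scored genes and −0.70 over genes typed essential. Of the 28 genes, 27 were below 0 in both replicates (96.4%), beside 61.3% of all genes and 93.3% of those typed essential. The median of the 963 non-targeting guides was −0.04 in replicate 1 and 0.00093 in replicate 2.

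Both Sm ring proteins with guides were called lower. SNRPF, a subunit of the Sm ring, was the lowest gene. It is represented by 8 guides on 1 junction, chr12:95859076-95861167. Its mean LFC at Days 7, 14 and 21 was −0.84, −3.34 and −3.06 in replicate 1 and −1.69, −4.71 and −5.44 in replicate 2. All 6 libraries lay below 0, with the replicates far apart at Day 21. The Day 21 mean was −4.25 (SD 1.68, n = 2; limma adjusted p = 0.0315), which is 5.25% of the Day 0 level as a geometric mean. Such a percentage is 2 to the power of the mean LFC over guides and replicates. It is not the share of cells left. SNRPD1, another Sm ring subunit, has 5 guides on chr18:21623939-21629061. Its mean LFC was −0.13, −1.08 and −1.31 across the days in replicate 1 and −0.66, −2.58 and −1.72 in replicate 2. At Day 21 the mean was −1.51 (SD 0.28, n = 2; limma adjusted p = 0.0192).

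The U1 proteins described here differed in their calls. SNRPC, the U1-C protein that helps U1 hold the start of the intron, measured −0.04, −0.70 and −1.75 in replicate 1 and −0.29, −1.26 and −2.90 in replicate 2. Every library lay below 0 and each replicate was lowest at Day 21, with a mean of −2.32 (SD 0.81, n = 2; limma adjusted p = 0.0274) over 12 guides. SNRNP70, the U1-70K protein that binds U1 RNA directly, was not called. Its LFC was −0.0015, −0.20 and −0.33 in replicate 1 and −0.48, −0.16 and −0.38 in replicate 2, with a Day 21 mean of −0.36 (limma adjusted p = 0.178). It has only 16 guides on 2 junctions, which differed from each other, as described with the junctions.

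SNRPA1, the U2-A′ protein, is the only U2 gene among the 28. It measured −0.05, −0.44 and −0.66 in replicate 1 and −0.05, −0.39 and −0.43 in replicate 2. Both replicates lay below 0 at each day, but the Day 21 mean of −0.54 (SD 0.17, n = 2) was not called (limma adjusted p = 0.0981).

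The U5 proteins hold 937 of the 1904 guides (49.2%). Of 5 genes, 3 were called lower at Day 21 and the list's median was −1.94. SNRNP200 (Brr2), the helicase that unwinds U4 from U6, has 319 guides on 42 junctions. Its mean LFC was −0.51, −2.24 and −2.47 in replicate 1 and −1.18, −2.59 and −2.79 in replicate 2. The replicates lay close together at Day 21, at a mean of −2.63 (SD 0.22, n = 2; limma adjusted p = 0.0107), 16.2% of the Day 0 level as a geometric mean. EFTUD2, the U5 GTPase, and PRPF8, the scaffold around the catalytic centre, were named after their values were seen. EFTUD2 measured −1.87 and −2.05 at Day 21, with a mean of −1.96 (SD 0.13, n = 2; limma adjusted p = 0.0115). PRPF8 measured −1.92 and −1.97, with a mean of −1.94 (SD 0.035, n = 2; limma adjusted p = 0.0107). The last 2 proteins of the list were not called at Day 21. SNRNP40, a WD40-repeat protein of U5 typed as not essential, measured 0.05, −0.67 and −1.09 in replicate 1 and −0.17, −0.51 and −0.62 in replicate 2. It was called lower at Day 14 at a mean of −0.59 (SD 0.11, n = 2; limma adjusted p = 0.0489) and missed the threshold at Day 21 at −0.86 (SD 0.33, n = 2; limma adjusted p = 0.0636), where its replicates lay further apart. The Day 14 call was kept with all days in a shared fit and with the replicate block, and it was lost under the other fits tried. PRPF6, which bridges U5 and U4/U6, was the highest of the U5 genes. Its LFC was −0.0012, −0.50 and −0.67 in replicate 1 and −0.16, −0.53 and −0.62 in replicate 2, and its Day 21 mean of −0.65 (SD 0.033, n = 2) had a limma adjusted p of 0.0619.

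Among the 7 U4/U6 and tri-snRNP genes, 2 were called lower at Day 21, with a median of −0.84 over the gene means. Within a replicate the median was less negative, at −0.46 in replicate 1 and −0.47 in replicate 2. USP39, an inactive ubiquitin-protease homologue needed for tri-snRNP assembly, was the lowest. It measured −0.15, −1.60 and −2.08 in replicate 1 and −0.57, −1.19 and −1.70 in replicate 2, with a Day 21 mean of −1.89 (SD 0.27, n = 2; limma adjusted p = 0.0136). PRPF31, a U4/U6 protein that also contacts U5, reached −0.91 and −0.76 at Day 21 (mean −0.84, SD 0.11, n = 2; limma adjusted p = 0.0403). PRPF38B (−0.46 and −1.37), SNRNP27 (−1.25 and −0.47), PRPF4 (−0.28 and −0.29) and PRPF38A (−0.34 and −0.18) were below 0 in both replicates at Day 21 but were not called. SART3, which recycles U4 and U6 after splicing, was the highest of the list. It measured −0.04, −0.26 and −0.25 in replicate 1 and 0.01, −0.14 and −0.15 in replicate 2, with a Day 21 mean of −0.20 (SD 0.071, n = 2; limma adjusted p = 0.405).

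The 4 LSM genes were split. LSM7 and LSM2, which belong both to the nuclear ring on U6 and to the cytoplasmic ring that acts in mRNA decay, were the lowest genes after SNRPF. LSM7 has 8 guides on 1 junction, chr19:2321822-2324124, and measured −0.36, −2.97 and −3.98 in replicate 1 and −1.22, −3.10 and −3.78 in replicate 2. The replicates differed at Day 7 and nearly met at Day 21, at a mean of −3.88 (SD 0.14, n = 2; limma adjusted p = 0.0107). LSM2 has 16 guides on 2 junctions and measured −0.24, −2.89 and −3.22 in replicate 1 and −1.36, −4.15 and −4.30 in replicate 2, with a Day 21 mean of −3.76 (SD 0.76, n = 2; limma adjusted p = 0.0126). These means correspond to 6.79% and 7.39% of the Day 0 level as geometric means over guides. LSM8, the subunit that distinguishes the nuclear ring, reached −0.78 and −0.52 at Day 21 and was not called (mean −0.65; limma adjusted p = 0.0731). LSM11, a component of the U7 snRNP that processes the ends of histone mRNAs and is not part of the spliceosome, was the only gene of the 28 not below 0 in both replicates at Day 21. It measured 0.15, 0.06 and 0.11 in replicate 1 and 0.01, 0.14 and 0.12 in replicate 2 and was above 0 in all 6 libraries, with a mean of 0.12 (SD 0.0060, n = 2; limma adjusted p = 0.612).

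None of the 5 genes of the Prp19 complex and related proteins was called at any day, with a Day 21 median of −0.39. At an unadjusted p under 0.05, limma gave 0 of them at Day 7, 1 at Day 14 and 1 at Day 21, all lower. Over all 1223 genes it gave 172, 456 and 460 in either direction. With the replicate block, 0 of the 5 were called at Day 7, 2 at Day 14 and 3 at Day 21. Over all 1223 genes that fit called 42, 468 and 556 lower. CWC22, which brings the exon junction helicase EIF4A3 to the spliceosome, was the lowest. It measured −0.02, −0.57 and −0.88 in replicate 1 and −0.07, −0.24 and −0.32 in replicate 2, with a Day 21 mean of −0.60 (SD 0.40, n = 2; limma adjusted p = 0.140). BCAS2, a core subunit of the Prp19 complex typed as not essential, was the highest. It measured −0.04, −0.15 and −0.09 in replicate 1 and 0.03, −0.16 and −0.16 in replicate 2, and its mean of −0.13 (SD 0.049, n = 2) had a limma adjusted p of 0.593. PRPF19 itself, the ubiquitin ligase of the complex, lay at −0.47 and −0.48, and XAB2 at −0.39 in both replicates. SNRNP25, a protein of the U11/U12 snRNP of the minor spliceosome, measured 0.11, −0.33 and −0.28 in replicate 1 and 0.10, −0.30 and −0.33 in replicate 2. It was above 0 at Day 7 and below 0 afterwards in both replicates, and its Day 21 mean of −0.30 (SD 0.037, n = 2) was not called (limma adjusted p = 0.234).

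Most genes that fell did so between Day 7 and Day 14. At Day 7 the calls were SNRPF (mean −1.26, limma adjusted p = 0.0109) and SNRNP200 (mean −0.85, limma adjusted p = 0.0359), 2 of the 28 genes, against 3.92% of all genes and 8.77% of those typed essential. Both calls were lost in limma with robust moderation. In the main limma fit 9 of the 28 genes had an unadjusted p under 0.05, where 172 of all 1223 genes did. The fit with the replicate block also called 2 genes, keeping SNRNP200 (limma adjusted p = 0.0131), losing SNRPF (limma adjusted p = 0.0672) and gaining LSM2. The replicates differed at that day: replicate 2 was below replicate 1 in 25 of the 28 genes, and the median over all guides of the screen was 0.0090 in replicate 1 and −0.10 in replicate 2. The part of that shift in the Day 7 values was not tested. At Day 14, 12 genes were called lower (42.9%), against 22.1% of all genes and 45.3% of those typed essential, and the median over the 28 genes was −0.45 (SD 0.054, n = 2), down from −0.09 at Day 7 (SD 0.091, n = 2). The 12 were the 11 called at Day 21 and SNRNP40. The change between days was also tested within each replicate. From Day 7 to Day 14, 11 genes fell in a limma fit over all genes, where 21.1% of all genes and 43.0% of those typed essential fell. From Day 7 to Day 21, 15 genes fell, where these shares were 23.5% and 45.9%. From Day 14 to Day 21 only SNRPC and LSM7 fell, where 1.06% of all genes and 1.25% of those typed essential fell. SNRPC fell by 1.34 (limma adjusted p = 0.0136) and LSM7 fell by 0.84 (limma adjusted p = 0.0374). Over the same week SNRNP200 changed by −0.21 (limma adjusted p = 0.549) and SNRPF by −0.23 (limma adjusted p = 0.711), neither of which passed the test. By Day 14, 60 guides in replicate 1 and 141 in replicate 2 were already at a number of 1. That is the lowest that the values can show, as described with read depth. A further loss of cells would not show in them. The shift that each library has instead made such values less negative at Day 21. SNRPF guide 2, at 1 in both replicates on both days, measured −6.66 and −6.94 at Day 14 against −6.28 and −6.67 at Day 21. How far this moved the change between these days was not tested.

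The junctions of a gene gave very different values. A guide lying on an exon-exon junction reaches only transcripts that hold that junction, so junctions of a gene are separate targets. Of the 248 junctions with at least 3 guides, 122 were called lower at Day 21 (49.2%) and 0 higher, in a limma fit on all 6401 such junctions, where 25.3% were called lower and 0.937% higher. Among junctions of genes typed essential, 36.7% were called lower and 0.382% higher. The calls were uneven between the 28 genes: SNRNP200 had 36 of 41 tested junctions called lower, PRPF8 28 of 35 and EFTUD2 16 of 21. These large U5 genes gave most of the 122 calls, so the share of 49.2% does not describe the 28 genes alike. At an unadjusted p under 0.05, limma gave 136 lower and 1 higher, and the fit with the replicate block called 154 lower and 4 higher. Over all 6401 junctions, limma gave 2087 unadjusted in either direction, and the block fit called 2516 lower and 305 higher. A further 7 junctions had fewer than 3 guides and were not tested. Within the 17 genes not called at Day 21, 18 of 117 tested junctions were called lower (15.4%), and these lay in 10 genes. Each junction was also set against the mean over the guides of all other junctions of its gene, in each replicate. In that limma fit 51 of 244 junctions were lower than the rest of their gene (20.9%) and 49 were higher (20.1%), against 12.0% and 9.92% of all 6111 junctions tested. Among genes typed essential these shares were 16.1% and 13.4%. The differing junctions lay in 14 genes, and 10 genes had some in each direction. A low junction lowers the mean against which the others are set, so the 2 directions are linked. In SNRNP70, with 2 junctions, the same difference counts once as lower and once as higher. The share of such genes over the whole screen was not computed.

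In SNRNP200 the 16th of 42 targeted junctions, counted from the 5′ end of the gene, measured −5.09 in replicate 1 and −5.91 in replicate 2 at Day 21. It lies at chr2:96291502-96291750 and its difference from the rest of the gene was −2.94 (SE 0.36; limma adjusted p = 6.66e-08). The 25th junction, chr2:96287160-96287438, measured −0.06 in each replicate, a difference of 2.64 (SE 0.36; limma adjusted p = 5.62e-07). Guides on the 16th junction were thus strongly lost while those on the 25th averaged near their Day 0 level, in both replicates. Of the 41 SNRNP200 junctions tested, 36 were called lower. Between the replicates, Pearson's r across the tested junctions was 0.92 in SNRNP200, 0.81 in EFTUD2 and 0.75 in PRPF8. Over the genes with enough junctions it ran from 0.39 in PRPF4 and 0.43 in CWC22 to 0.95 in PRPF31. These are correlations across junctions of a gene, which share libraries and the Day 0 reference. Spearman's rho between Day 21 mean and order from the 5′ end was 0.14 in SNRNP200 and 0.02 in PRPF8, and over the genes with enough junctions it ran from −0.82 in PRPF4 to 0.52 in PRPF31. Between each junction and the next, r was −0.05 in SNRNP200 and 0.04 in PRPF8.

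PRPF8 ranged from −3.43 and −5.25 on its 24th of 36 junctions (chr17:1660827-1660992; difference −2.47, SE 0.39; limma adjusted p = 6.14e-06) to 0.28 and 1.07 on the last, nearest the 3′ end (chr17:1650956-1651107; difference 2.69, SE 0.37; limma adjusted p = 5.39e-07).

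In other genes a strong junction stood out against weak ones. PRPF31 measured −4.11 and −4.19 on the 3rd of 10 targeted junctions, chr19:54121943-54122496, while the rest of the gene was at −0.64. The difference was −3.52 (SE 0.36; limma adjusted p = 1.47e-09). Its 8th, chr19:54128200-54128304, measured 0.14 and 0.30 (difference 1.19, SE 0.36; limma adjusted p = 0.0135). The gene mean of PRPF31 thus joins very unequal junctions, and 5 of the 10 were called lower. PRPF6 measured −3.57 and −3.14 on the last of its 18 junctions, chr20:64032044-64032840, with the rest at −0.56 (difference −2.79, SE 0.36; limma adjusted p = 1.88e-07). Its 13th, chr20:64026058-64026981, measured 0.74 and 0.76 (difference 1.47, SE 0.36; limma adjusted p = 0.00234). PRPF6 was not called as a gene, and 5 of its 18 junctions were called lower. SNRNP40 measured −3.94 and −2.22 on the 3rd of 7 junctions, chr1:31289419-31291912, with the rest at −0.49 (difference −2.59, SE 0.38; limma adjusted p = 1.81e-06). It was the only SNRNP40 junction called lower.

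Smaller genes split in the same way, in junctions named after their values were seen. The 2 junctions of SNRNP70 differed by 1.22 (limma adjusted p = 0.0114): the first, chr19:49086561-49090290, measured 0.20 and 0.32, and the other, chr19:49098491-49098641, −0.85 and −1.08. USP39 measured −3.59 and −3.81 on the 2nd of its 6 junctions (chr2:85625691-85630720) and −0.52 and 0.46 on the next (chr2:85630946-85636052). LSM8 measured −1.82 and −1.35 on the last of its 3 junctions (chr7:118188405-118191911), and its other junctions lay between −0.30 and 0.08 in each replicate. PRPF19 had 3 of 13 junctions called lower, the lowest at −2.90 and −2.55 (chr11:60898931-60899148). By contrast the 2 junctions of LSM2, chr6:31806142-31806754 and chr6:31798049-31798476, had means of −3.74 and −3.78. The 13 junctions of SART3 had means between −0.78 and 0.37.

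The table also sorts junctions into categories whose definitions were not stated. Among the 255 junctions, 124 were listed as common, 123 as single_unique, 6 as fully_unique and 2 as partial_unique. The last 2 categories occur only in SNRNP40 and LSM8. The 6 fully_unique junctions of SNRNP40 together measured −1.15 and −0.65 at Day 21, and its common junction −0.76 and −0.47. In LSM8 the partial_unique junctions measured −1.03 and −0.63 and the common junction −0.27 and −0.30. In both genes a single junction, the 3rd, carries these class values. Without it the other 5 fully_unique junctions of SNRNP40 measured −0.59 and −0.33 and the other partial_unique junction of LSM8 −0.24 and 0.08, both less negative than the common junction in each replicate. The categories were not tested against each other.

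Guides on the same junction also varied. Of the 1904 guides, 475 were called lower at Day 21 (24.9%) and 1 higher, in a limma fit on all 46829 guides, where 11.1% were called lower and 0.218% higher. Among guides on genes typed essential, 16.0% were called lower and 0.201% higher. Here too the calls were uneven: SNRNP200 had 150 of 319 guides called lower, PRPF8 106 of 272 and EFTUD2 54 of 162. These large U5 genes gave most of the 475 calls, so the share of 24.9% does not describe all the genes alike. An LFC of −1 or below in both replicates was found for 610 guides (32.0%), beside 17.8% of guides on scored genes, 7.23% of control guides and 3.74% of non-targeting guides. The share differed widely between genes, from 81.2% of guides for LSM2 and 56.1% for SNRNP200 to 8.00% for SART3 and 0 of 24 guides for LSM11. Of the 197 junctions with 8 guides, 78 had no guide called lower and 4 had all 8 called. They included the 16th, 27th and 36th junctions of SNRNP200. Guides share their junction and gene, so they are not replicates of each other.

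On the SNRPF junction, guide 2 measured −6.28 and −6.67 at Day 21 (limma adjusted p = 3.98e-07) and guide 8 on the same junction 2.27 and 0.74 (limma adjusted p = 0.363). The remaining SNRPF guides lay between them, and 7 of 8 were called lower. In LSM7, guide 2 measured −6.78 and −8.06 (limma adjusted p = 2.02e-07) and guide 3 −1.29 and −0.89 (limma adjusted p = 0.602). USP39 held the lowest guide mean of the 28 genes, guide 1 of its 2nd junction, at −7.24 and −7.70 (limma adjusted p = 2.02e-07), while guide 7 there measured −0.27 and 0.80 (limma adjusted p = 0.948). Even on the lowest SNRNP200 junction, where all guides were called, values ran from −6.44 and −7.61 for guide 8 (limma adjusted p = 2.11e-07) to −3.08 and −3.32 for guide 1 (limma adjusted p = 0.00521). The lowest guides named here for SNRPF, LSM7, USP39 and SNRNP200 were all at a number of 1 in both replicates at Day 21. That is the lowest possible number, as described with read depth. The order among these guides is therefore set by their Day 0 numbers and does not rank the strength of loss.

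The lowest guides on the chosen junctions of the remaining lists had less negative means. On the 2nd SNRPC junction, chr6:34770395-34773445, guide 7 measured −2.52 and −4.71 (limma adjusted p = 0.00194) against −0.47 and 0.15 for guide 1 (limma adjusted p = 0.973). On the 3rd SNRPA1 junction, chr15:101285060-101285725, guide 5 measured −3.88 and −2.02 (limma adjusted p = 0.0129) against 1.30 and 0.79 for guide 6 (limma adjusted p = 0.625). On the 2nd CWC22 junction, chr2:179981997-179986694, guide 3 measured −6.02 and −2.64 (limma adjusted p = 0.000335) against 1.00 and 0.44 for guide 8 (limma adjusted p = 0.797). On the 3rd SNRNP25 junction, chr16:56613-57085, guide 3 measured −1.90 and −5.57 (limma adjusted p = 0.0022) against 1.44 and 2.39 for guide 7 (limma adjusted p = 0.166). The replicates of these low guides differed by up to several log2 units, a difference that enters their p only slightly. The only guide called higher was guide 7 on the 3rd PRPF19 junction, chr11:60902465-60902582, at 2.77 and 2.47 (mean 2.62; limma adjusted p = 0.0285).

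Read depth is not given in the sources used here. Up to a shift that each library has, every LFC is the log2 of a fraction of integers, which gives a lowest whole number behind each guide, any added pseudocount included. Its median over the 1904 guides for Days 0, 7, 14 and 21 was 95, 111, 69 and 48 in replicate 1, and 128, 125, 110 and 80 in replicate 2. At Day 21, 126 guides in replicate 1 (6.62%) and 147 in replicate 2 (7.72%) were at the lowest possible number of 1, beside 3.03% and 3.12% of all guides. LSM7 guide 2 is an example, with Day 0 numbers of 115 and 244 and a Day 21 number of 1 in each replicate. For such guides the LFC is bounded by the Day 0 number. Across the 1904 guides the replicates had a Pearson's r of 0.54 (Day 7), 0.72 (Day 14) and 0.70 (Day 21). Across the 28 gene means r was 0.92 at Day 21.

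The gene score in the table, in a column named for the GeCKO Cas9 knockout library and of unstated origin, ran from −1.83 (PRPF19) to −0.85 (USP39) over the 28 genes. Across these genes it had a Pearson's r of 0.15 and a Spearman's rho of −0.06 with the Day 21 mean LFC. PRPF19, with the lowest score, had a Day 21 mean of −0.47, and USP39, with the highest, −1.89. How wide this range is beside the rest of the screen is not given here, and the genes share libraries.

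Other splicing genes give the setting. Of 23 further spliceosome genes among the scored genes (U2 proteins, helicases and factors of the activated complexes), 14 were called lower at Day 21 (60.9%), 17 at an unadjusted p under 0.05 in limma, with a median of −1.03. The lowest was SF3B1, the U2 protein that holds the branch point, at −4.89 (limma adjusted p = 0.0107), and the highest SF3B4 at 0.03 (limma adjusted p = 0.947). Of 7 genes for snRNP assembly and transport, only STRAP was called lower, at −1.44 (limma adjusted p = 0.0150). The list's median was −0.24 over the gene means, −0.37 in replicate 1 and −0.30 in replicate 2. The difference between these lists was not tested.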

How the data were processed

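Guide abundance was measured in 8 libraries of genomic DNA, with groups and replicate numbers from the labels. The authors deposited log2 fold changes for every guide in each day's library, per the file headers, and a GeCKO gene score per gene, deposited with its scale and origin unstated. Per the submitters' processing notes, cutadapt 3.5, Bowtie 1.1.2 and build hg38 were used, with no role given. Read counting, library scaling, pseudocount and filters are not given in the sources used here, nor is depth. Whole-number ratios behind the values were found with denominators of at most 2000. Coordinates are those of the deposited table, and all 255 junctions lay within the same-symbol gene in RefSeq GRCh38.

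With limma 3.58.1 in R 4.3.3, the 2 replicate values of each day were tested against 0 over the whole table, for genes and junctions with at least 3 guides and for each guide, with Benjamini-Hochberg adjustment and a threshold of 0.05. Each day was fitted alone. SE is limma's moderated error and SD the spread of the replicates. The labels do not say whether replicates came from separate cultures, so p-values measure only the spread between these samples, which may be technical. For junctions against Day 0 limma pooled the spread fully, so a junction's own replicate difference does not enter its p. For guides and for junctions against the rest of their gene it enters only slightly. There the pooled spread had 32.3 and 36.5 degrees of freedom, beside 1 from the replicates. The scripts were tested on simulated data.

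Genes described in full are the 3 lowest, the lowest and highest of each role list, those called higher at any day and those called lower although typed not essential. For junctions they are the lowest and highest called against the rest of the gene in up to 6 genes, and for guides the lowest and highest of the best-covered junction of the lowest gene per list. A gene that enters the counts is not reported here by itself. Genes, lists and rules were chosen with earlier results of these data known. The pairing of replicates comes from the label numbers and the shared Day 0 library: deviations from the group mean correlated over all guides at 0.48, 0.41 and 0.65 for the pairs of days, and the fit with this block was an alternative. In that fit the replicate difference shared by the days does not enter p.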

Additional observations from a re-analysis of the deposited data

Results flagged for a closer look

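For 14 genes described here the Day 21 value differed from the Day 7 value in a limma test of the difference itself, within replicates and adjusted over all genes, where 23.5% of genes fell. In the LSM ring, LSM7 changed by −3.09, LSM2 by −2.96 and LSM8 by −0.66. In the Sm ring, SNRPF changed by −2.99 and SNRPD1 by −1.12. In U1, SNRPC changed by −2.16. In U5, SNRNP200 changed by −1.78, EFTUD2 by −1.48, PRPF8 by −1.29 and SNRNP40 by −0.79. In U4/U6 and the tri-snRNP, USP39 changed by −1.53, PRPF38B by −0.83, SNRNP27 by −0.77 and PRPF31 by −0.68. Both replicates moved the same way in each of these genes.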

How the results depend on the processing

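Counts of genes called lower moved with the days in the fit, the summary over guides and the centring. At Day 21 the count of 11 became 2 with the median over guides (SNRNP200 among them), 5 when centred on all guides, 8 when centred on the non-targeting guides (SNRPF, SNRPC and PRPF31 lost), and 21 both in a fit of all days with shared spread and with the replicate block. At Day 14 the count of 12 became 7 with the median over guides and 18 with the block. Over all 1223 genes the block fit called 556 lower at Day 21 and 468 at Day 14, and the shared fit 477 at Day 21. At Day 7 the count of 2 became 4 with the median over guides and 1 with no minimum number of guides or centred on the non-targeting guides, and stayed at 2 with the block (SNRPF lost, LSM2 gained). It became 0 with robust limma (7 at an unadjusted p under 0.05), in the shared fit (5), centred on all guides (7), centred on control guides (7) and in guides whose implied numbers at Day 0 reached 50 (6). For Day 21 minus Day 7 the count of 15 became 5 with the median over guides, 8 centred on all guides and, for Day 21 minus Day 14, a comparison added after seeing the data, 2. Junctions differing from the rest of their gene went from 100 to 65 with the median over guides. The median over the 28 genes at Day 14 was −0.22 centred on all guides, −0.27 with the median over guides and −0.55 with the implied-number filter, and at Day 21 it was −0.44 and −0.46 under the first 2. Leaving out a replicate gave medians from −0.17 to −0.04 (Day 7), −0.50 to −0.43 (Day 14) and −0.83 to −0.57 (Day 21), as values without a test, since 1 replicate leaves no spread. Signs turned for BCAS2 (0.0054 with the median over guides, 0.18 centred on all guides), SART3 (0.11) and SNRNP25 (0.0040), both centred on all guides, for SNRPC guide 1 (0.15 centred on all guides, and −0.47 to 0.15 when leaving out a replicate) and for USP39 guide 7 (−0.27 to 0.80 when leaving out a replicate); none of these was called. Centring on all guides moved the median of all genes from −0.28 to 0.03. With the replicate block, 651 guides were called lower and 57 higher, where 9040 and 1915 of all 46829 guides were. The cause of these changes was not tested. The other results for single genes, junctions and guides gave 601 values counted as the same, 79 that lost a call and 16 that gained one. The 601 include values without a replicate, which kept their direction but have no test. They also include centred values of junctions against the rest of their gene. Centring cancels in that difference, so those values could not change.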

Other observations

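The 9 guides on SNRPB2 and LSM14A, typed as non-essential controls, belong in none of the comparisons. SNRPB2, the U2-B″ protein, had 3 guides on 1 junction and measured 0.06 and 0.27 at Day 21 (mean 0.17, limma adjusted p = 0.507). LSM14A, a protein of cytoplasmic RNA granules, had 6 guides on 2 junctions and measured 0.28 and 0.31 (mean 0.30, limma adjusted p = 0.240).

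Among the 197 junctions with 8 guides, the share of guides called lower at Day 21 by guide number ran from 20.8% for guide 8 to 30.5% for guide 5. Mean LFC was −1.22 and −1.28 for guide 8 in replicates 1 and 2 and −1.45 and −1.63 for guide 5. Over 4234 other junctions of the screen the means were −0.70 and −0.62 for guide 8 and −0.74 and −0.72 for guide 5. In those junctions guide 4 was the lowest in both replicates, at −0.75 and −0.74. What the number stands for is not stated, and the differences between guide numbers were not tested.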
